A study of Caenorhabditis elegans with 6 samples.

Results

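Worms carrying the scav-4 allele unk49 were compared with worms carrying the allele unk59, both grown on the standard laboratory food E. coli OP50 and labelled as harvested at the L4 larval stage. scav-4 belongs to the CD36-related family of scavenger receptors, membrane proteins that bind and take up lipids in other animals. The comparison uses 2 of the 6 samples of the series, scav-4(unk49) on OP50 and scav-4(unk59) on OP50, each defined by its genotype and food, and the 2 gene count tables (libraries) deposited for each. Of 46778 genes in the tables, 15950 had enough reads to be tested, and all of these entered the comparison. Wild-type worms (WT, library name N2) on OP50 at L4 are cited only to show where each allele lies.

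The series as a whole measured RNA of whole worms from these 3 genotypes on OP50 or on Microbacterium sp. JUb74, the food of the other samples. All worms hatched in buffer overnight, were placed on food as L1 larvae and were grown on plates to L4. The labels do not give the DNA change in either allele, whether the strains were outcrossed, or whether the 2 libraries of an allele are separate cultures. The p-values below therefore measure the spread between libraries, which may be technical, and n = 2 counts libraries.

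Late L4 is a time of overlapping programmes in the C. elegans hermaphrodite. The germ line grows, makes sperm first and then switches to oocytes, the intestine of the adult makes yolk that oocytes take up, and the epidermis builds a new cuticle for the last moult under a set of oscillating and heterochronic (developmental timing) regulators. Genes of each programme serve as markers of how far a population has gone.

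Depth hardly differed: from 22012836 to 22385418 read pairs fell in genes in each of the 4 libraries. Values are CPM (counts scaled to the size and composition of each library), and log2 fold changes are unk49 over unk59. Across genes, log2 CPM correlated within each allele with a Pearson coefficient of 0.970, against 0.990 for wild type, as a description of libraries and not of replicate samples. By large differences the unk59 libraries were further apart: 764 genes (4.79%) differed by more than 4-fold, against 171 (1.07%) in unk49 and 28 (0.176%) in wild type. By the chi-square of the counts per degree of freedom the order of the alleles was the reverse, 88.9 in unk49 and 63.9 in unk59. On the first principal component of the 6 OP50 libraries, which held 79.7% of the variance, unk49 lay at 145 and 136, wild type at -42.3 and -45.6 and unk59 at -122 and -71.6. Where leaving out a library ended a call or moved a count of calls by more than 1.5 times, the value without it is given below.

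scav-4 itself was read first. The gene lies on chromosome X from 12981775 to 12985868, plus strand (WBcel235, protein-coding). It had 6.04 and 7.16 CPM in unk49 and 39.3 and 38.3 CPM in unk59, and 47.3 and 36.1 CPM in wild type. Both unk49 libraries lay far below both unk59 libraries, which were at the level of wild type. The means were 6.60 ± 0.791 CPM (SD, n = 2) in unk49 and 38.8 ± 0.737 CPM (SD, n = 2) in unk59 (log2 fold change -2.55, SE 0.465, adjusted p 0.00181, quasi-likelihood F test of edgeR, adjusted by Benjamini-Hochberg over all 15950 genes). The fold change lay between -2.71 and -2.39 over the 13 alternatives and stayed past the threshold in each. Gene counts do not show which exons the remaining reads cover, and in whole worms fewer cells that express a gene cannot be told apart from less RNA per cell, here or for any gene below.

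Among the other 5 scavenger receptor genes of the family, scav-6 had 20.7 and 35.1 CPM in unk49 and 54.4 and 68.7 CPM in unk59 and fell (log2 fold change -1.14, SE 0.312, adjusted p 0.0129). That call was lost without library 1 of unk49 (adjusted p 0.0653) and without library 2 of unk59 (adjusted p 0.0601). scav-1, scav-2, scav-3 and scav-5 did not pass, with log2 fold changes of -0.61, 0.57, -0.11 and 0.66, and the sign of scav-3 changed with 2 alternatives. Their libraries ranged from 19.8 to 222 CPM. The family as a whole had a median of -0.36, against 0.03 over all genes tested.

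The contrast reached 54% of the genes tested: 8616 of 15950 passed an adjusted p of 0.05. Of these, 4818 (30.2%) were higher in unk49 and 3798 (23.8%) were lower. With a log2 fold change of at least 1 in size, 4115 (25.8%) were higher and 2467 (15.5%) lower. The rises were much the larger: 2192 calls were at least 8-fold higher in unk49 and 95 at least 8-fold lower. In 775 of the higher calls unk59 was at the floor of 3 reads or fewer in each library, and in 65 of the lower calls unk49 was, so their fitted folds depend on the model's prior count. The libraries of the alleles did not overlap for 8612 of the called genes, and they did not overlap for 76.1% of all genes tested, 39% with unk49 higher and 37.1% with it lower. The quartiles of the log2 fold change were -0.75 and 1.34.

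**Figure D1:**
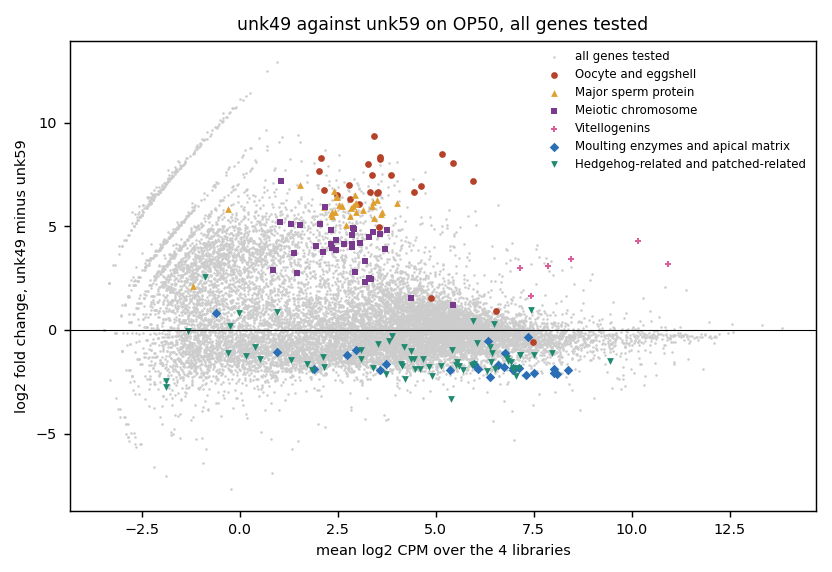
Log2 fold change, unk49 minus unk59 on OP50, against the mean log2 CPM over the 4 libraries, for 15950 genes tested (grey points) with members of 6 gene lists in colour. Oocyte, sperm and meiotic genes sit above the line, up to 9.38, apart from mbk-2 just below it, while moulting and hedgehog-related genes sit mostly below it, down to -3.34; streaks on the left are genes at or near 0 reads in an allele.

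Among called genes with a name and a mean log2 CPM of at least 2, the largest rises were genes of the oocyte and the early embryo. Without the conditions for naming, fitted values reached 11.5 among genes whose RNA mothers load into embryos. They reached 10.1 among C-type lectins and 9.03 among insulin-like peptides. puf-5, which encodes an RNA-binding protein of the Pumilio family that acts in late oocytes, had 435 and 129 CPM in unk49 and 0.304 and 0.525 CPM in unk59 (log2 fold change 9.38, SE 0.833, adjusted p 0.000116). cpg-1, for a chondroitin proteoglycan of the eggshell, had 1215 and 280.1 CPM in unk49 and 2.08 and 2.05 CPM in unk59 (log2 fold change 8.49, SE 0.905, adjusted p 0.000215). rme-2, the yolk receptor of the oocyte, had 364 and 96.6 CPM in unk49 and 0.913 and 0.477 CPM in unk59 (log2 fold change 8.37, SE 0.892, adjusted p 0.000209). The largest changes were named only where the libraries of the alleles did not overlap, which 76.1% of all genes tested also met. For each of these genes, library 1 of unk49 was the higher of its pair. The next were puf-7, another Pumilio-family gene (8.31), egg-1, needed on the oocyte for sperm entry (8.27), pos-1, a zinc-finger protein supplied to the embryo by the mother (8.11), cpg-2, another eggshell proteoglycan (8.08), and sip-1, a small heat shock protein of oocytes and embryos (8.04). All 8 passed, with adjusted p between 0.000112 and 0.000386, and kept the call under all 13 alternatives; sip-1 shares 19.2% of its exon bases with a neighbouring gene.

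Under the same conditions of name and level, the largest falls were mostly of genes linked to the cuticle. Without the conditions for naming, fitted values reached -6.92 among UDP-glucuronosyltransferases and -6.59 among saposin-like proteins and proteases. col-41, a cuticle collagen, had 29.4 and 16.6 CPM in unk49 and 1438 and 388 CPM in unk59 (log2 fold change -5.31, SE 0.655, adjusted p 0.000318). dpy-1, a gene whose loss makes worms short and fat, had 3.64 and 2.92 CPM in unk49 and 82.3 and 28.9 CPM in unk59 (log2 fold change -4.08, SE 0.498, adjusted p 0.000303). cut-2, for a cuticlin, a non-collagen cuticle protein, had 129 and 91.6 CPM in unk49 and 2149.8 and 1104 CPM in unk59 (log2 fold change -3.88, SE 0.408, adjusted p 0.000187). The choice of these genes required that the libraries of the alleles do not overlap. In each case library 1 of unk59 was the higher of its pair. The collagens col-54 (-4.34), col-90 (-3.92) and col-169 (-3.64) and the hedgehog-related gene grd-13 (-3.34) fell in the same way. acox-1.2, a peroxisomal acyl-CoA oxidase, was the exception among the 8, with no known cuticle role: it had 24.3 and 41.8 CPM in unk49 and 361 and 354 CPM in unk59 (log2 fold change -3.44, SE 0.480, adjusted p 0.000526). All 8 falls kept their call under all 13 alternatives.

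Oocyte and eggshell genes rose as a set. Of 25 members tested, 23 were higher, with a median log2 fold change of 6.93, against 30.2% of all genes tested and a median of 0.03. oma-1 and oma-2, zinc-finger proteins that time oocyte maturation, had 178 and 56.8 CPM in unk49 and 1.12 and 1.29 CPM in unk59, and 296 and 105 CPM in unk49 and 1.32 and 0.907 CPM in unk59, in that order (log2 fold changes 6.60 and 7.49, adjusted p 0.000176 and 0.000112). cbd-1, a chitin-binding protein of the eggshell, had 1282 and 368 CPM in unk49 and 7.15 and 4.30 CPM in unk59 (log2 fold change 7.17, SE 0.721, adjusted p 0.000167). Library 1 of unk49 was well above library 2 in each of these, and even library 2 lay far over unk59. Summed over the list, the level was 8194 and 3029.7 CPM in unk49 and 354 and 336 CPM in unk59, with 394 and 382 CPM in wild type. The members that did not pass were mbk-2, a kinase of the oocyte-to-embryo transition (-0.56, adjusted p 0.0755), which fell without library 1 of unk49 (adjusted p 0.00667), and lin-41, which also acts in the epidermis (0.93, adjusted p 0.190); the sign of lin-41 turned to -0.38 without library 1 of unk49.

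Genes whose RNA mothers load into embryos behaved alike: 16 of 18 rose (88.9%, beside 30.2% of all genes tested), with a median of 5.50. cey-2, a Y-box protein of the germ line, had 1066 and 514 CPM in unk49 and 11.7 and 12.8 CPM in unk59 (log2 fold change 6.01, SE 0.534, adjusted p 0.000116). The members that did not pass were skn-1, a transcription factor with roles in stress and gut fate (-0.13, adjusted p 0.658), and par-6, a cell polarity protein (-0.22, adjusted p 0.344); without library 1 of unk49 both fell. The list's summed level was 4276 and 2167 CPM in unk49 and 411 and 374 CPM in unk59.

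Germline RNA regulators and P granule components, the RNA-protein bodies of germ cells, rose in 26 of 27 cases, with a median of 4.06. That share, 96.3%, stands beside 30.2% of all genes tested. gld-1, a translational repressor of the meiotic germ line, had 731 and 282 CPM in unk49 and 12.3 and 6.73 CPM in unk59 (log2 fold change 5.74, SE 0.601, adjusted p 0.000187). deps-1, a P granule protein, had 127 and 58.6 CPM in unk49 and 4.01 and 2.53 CPM in unk59 (log2 fold change 4.82, SE 0.514, adjusted p 0.000195), and glp-1, the Notch receptor of germline stem cells, had 96.5 and 49.3 CPM in unk49 and 11.7 and 6.54 CPM in unk59 (log2 fold change 3.0, SE 0.506, adjusted p 0.00127). These genes were named under the condition that the libraries of the alleles do not overlap, which 76.1% of all genes tested also met. The member that did not pass was gld-2, a poly(A) polymerase (0.21, adjusted p 0.536).

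Meiotic chromosome genes rose without exception: 35 of 35 passed, beside 30.2% of all genes tested. Their median was 4.15 and their range from 1.21 to 7.17. him-3, a protein of the meiotic chromosome axis, had 54.1 and 52.7 CPM in unk49 and 1.93 and 2.05 CPM in unk59 (log2 fold change 4.74, SE 0.486, adjusted p 0.000174). htp-1, of the same HORMA-domain family, had 48.9 and 68 CPM in unk49 and 2.49 and 2.24 CPM in unk59 (log2 fold change 4.63, SE 0.281, adjusted p 5.58e-05), and syp-2, of the synaptonemal complex that joins paired chromosomes, had 27.2 and 43.1 CPM in unk49 and 1.47 and 1.43 CPM in unk59 (log2 fold change 4.59, SE 0.321, adjusted p 7.75e-05). Over the whole lists, the unk49 libraries lay closer together for meiotic than for oocyte genes. The median log2 difference of library 2 from library 1 was -0.41 and -1.47, in that order. In unk59 it was -0.13 and -0.02. htp-1 and syp-2 were named for a small adjusted p, which favours genes with close libraries. rec-8, the meiotic cohesin (3.93), and syp-1 (4.17) also rose; syp-1 shares 16.9% of its exon bases with another gene. The summed level of the list was 1107 and 958 CPM in unk49 and 105 and 87.5 CPM in unk59, and 209 and 234 CPM in wild type.

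Of 28 cell cycle and DNA replication genes tested, 25 rose (89.3%, beside 30.2% of all genes tested), with a smaller median of 2.15. The B-type cyclins cyb-2.1 and cyb-2.2 had the highest rises of those named: cyb-2.1 had 81.9 and 87.3 CPM in unk49 and 0.507 and 0.955 CPM in unk59 (log2 fold change 6.84, SE 0.532, adjusted p 9.82e-05) and cyb-2.2 had 142.7 and 124 CPM in unk49 and 0.609 and 1.38 CPM in unk59 (log2 fold change 7.05, SE 0.560, adjusted p 9.82e-05). cyb-1, another B-type cyclin, had 300.1 and 134 CPM in unk49 and 18.7 and 14.4 CPM in unk59 (log2 fold change 3.71, SE 0.373, adjusted p 0.000167). The members cdc-25.2, orc-2 and cdc-6 did not pass.

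Sperm genes were also higher in unk49, with a split between the unk59 libraries. Of 29 major sperm protein genes tested, 28 rose (96.6%, beside 30.2% of all genes tested), with a median of 5.95. These genes are near-identical and reads that map to several places were left out. Each gene's own value is therefore uncertain. Their summed level was 2693 and 1754 CPM in unk49 and 3.81 and 68.3 CPM in unk59, with 141 and 120.1 CPM in wild type. Within unk59, library 2 stood far above library 1, and both stood below wild type. Without library 2 of unk59 the median was 9.15. msp-79 had 72.3 and 40.1 CPM in unk49 and 0.152 and 1.15 CPM in unk59 (log2 fold change 6.4, SE 0.613, adjusted p 0.000146), and msp-65 and msp-142 rose by 6.43 and 5.69 on the log2 scale. The member that did not pass was msp-74 (2.12, adjusted p 0.0741).

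The wider spermatogenesis list had 25 rising and 1 falling of 33 (75.8% and 3.03%, beside 30.2% and 23.8% of all genes tested). Its median was 2.89 (2.72 where members at the floor take their bounds). The median was 4.58 without library 2 of unk59. gsp-3 and gsp-4, protein phosphatases of sperm, had 58.6 and 23.6 CPM in unk49 and 0.254 and 2.2 CPM in unk59, and 50.1 and 24.6 CPM in unk49 and 0.254 and 1.57 CPM in unk59, in that order (log2 fold changes 5.05 and 5.33, adjusted p 0.000556 and 0.000253); they are close copies. spe-15, a myosin, rose by 1.19 (adjusted p 0.00993), and fer-1, a membrane fusion protein of sperm, by 2.75 (adjusted p 0.00782). Both calls were lost without library 1 of unk49, with values of 0.50 and 1.43, and that of spe-15 also without library 1 of unk59. spe-9, a sperm surface protein, had 1.03 and 0.398 CPM in unk49 and 0.254 and 0.239 CPM in unk59 and did not pass (log2 fold change 1.52, SE 0.650, adjusted p 0.0739). The fall was that of spe-29 (-1.28, adjusted p 0.0288), which shares 34.1% of its exon bases with gon-1 and lost its call under some alternatives, among them without either unk49 library and without library 1 of unk59.

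**Figure D2:**
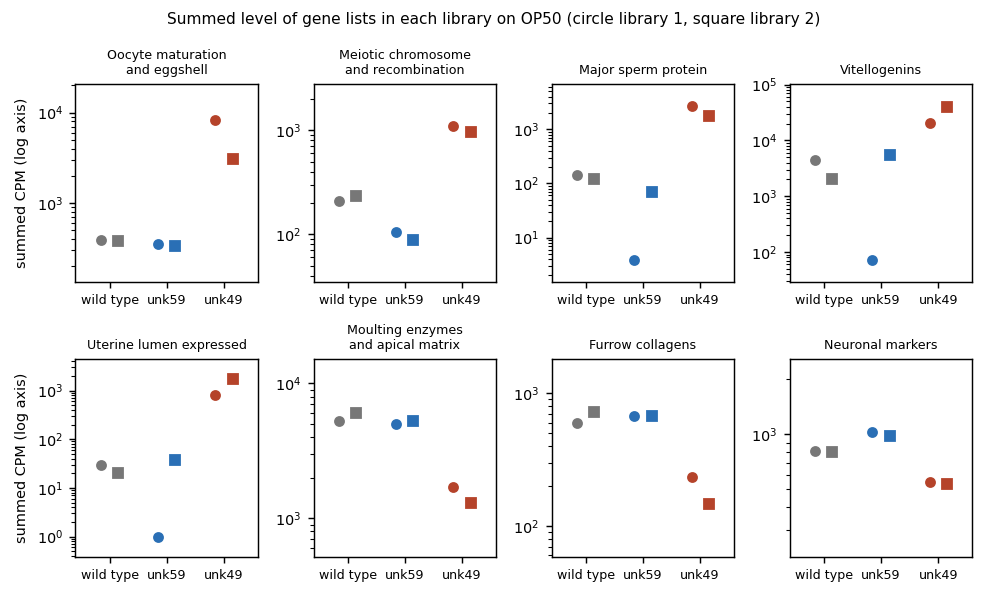
Summed CPM of 8 gene lists in each OP50 library on log axes; circles are library 1 and squares library 2 of wild type (grey), unk59 (blue) and unk49 (red). Both unk49 libraries lie above all others for oocyte, meiotic, sperm, yolk and uterine genes and below all others for moulting genes, furrow collagens and neuronal markers; the unk59 libraries lie far apart for sperm, yolk and uterine genes.

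Yolk protein genes, which the intestine of adult hermaphrodites transcribes, showed the widest split within unk59. The 6 vitellogenins summed to 20589.8 and 40439.9 CPM in unk49 and 73.2 and 5410.3 CPM in unk59, with 4423 and 2058 CPM in wild type. Both unk49 libraries were above the others, library 2 of unk59 lay near wild type, and library 1 of unk59 was lower than all. vit-2 had 8499.9 and 16145 CPM in unk49 and 10.2 and 1239.8 CPM in unk59 (log2 fold change 4.30, SE 1.66, adjusted p 0.0559), and vit-6 had 8600.0 and 15807 CPM in unk49 and 41.2 and 2639.6 CPM in unk59 (log2 fold change 3.19, SE 1.41, adjusted p 0.0873). Of the 6 genes, 0 passed with edgeR, although 2 had an unadjusted p under 0.05 and DESeq2 called 3. The median log2 fold change was 3.14. Without library 2 of unk59 it was 8.29 and all 6 passed; without library 1 it was 2.19 and 4 passed. Among 7 regulators and receptors of yolk, rme-2 rose as above, while elt-2, the GATA factor of the intestine (-0.62, adjusted p 0.0212), mab-3, a DM-domain factor (-1.98, adjusted p 0.00404), and lrp-2 (-1.03, adjusted p 0.00315) fell; the elt-2 call was lost without either unk59 library and without library 1 of unk49.

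The 5 ule genes, named for expression in the uterine lumen, all rose, beside 30.2% of all genes tested, with a median of 6.61. The ule-4 call was lost with no filter on low counts and when only the 4 libraries were fitted. ule-1 had 36.5 and 107 CPM in unk49 and 0.0507 and 0.716 CPM in unk59 (log2 fold change 7.50, SE 0.804, adjusted p 0.000196), and ule-4 had 251 and 694 CPM in unk49 and 0.457 and 22.9 CPM in unk59 (log2 fold change 5.34, SE 1.31, adjusted p 0.00949). ule-2, ule-3 and ule-5 rose by 6.12, 6.61 and 7.17 on the log2 scale. The unk49 libraries were above the unk59 libraries for all 5, and library 2 of unk59 was above library 1. Without that library 2, ule-2, ule-3, ule-4 and ule-5 stood at 11.09, 10.07, 9.99 and 11.99 and the median was 10.31.

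The unk59 libraries also lay apart for 3 collagens of the adult cuticle, col-19, col-7 and bli-1. col-19, which is switched on at the adult stage, had 753 and 770.5 CPM in unk49 and 2.49 and 100.4 CPM in unk59, and 87.6 and 40.1 CPM in wild type (log2 fold change 3.89, SE 1.28, adjusted p 0.0317). Its call was lost under 5 of the 13 alternatives, without either unk49 library among them, and its value was 8.25 without library 2 of unk59. col-7, another adult collagen, had 61.2 and 57.1 CPM in unk49 and 0.152 and 32.3 CPM in unk59 and did not pass (log2 fold change 1.86, SE 1.29, adjusted p 0.252). bli-1, a collagen of the struts of the adult cuticle, had 165 and 124 CPM in unk49 and 64.1 and 418 CPM in unk59 and did not pass (log2 fold change -0.74, SE 0.831, adjusted p 0.472); its sign turned to 1.17 without library 2 of unk59.

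**Figure D3:**
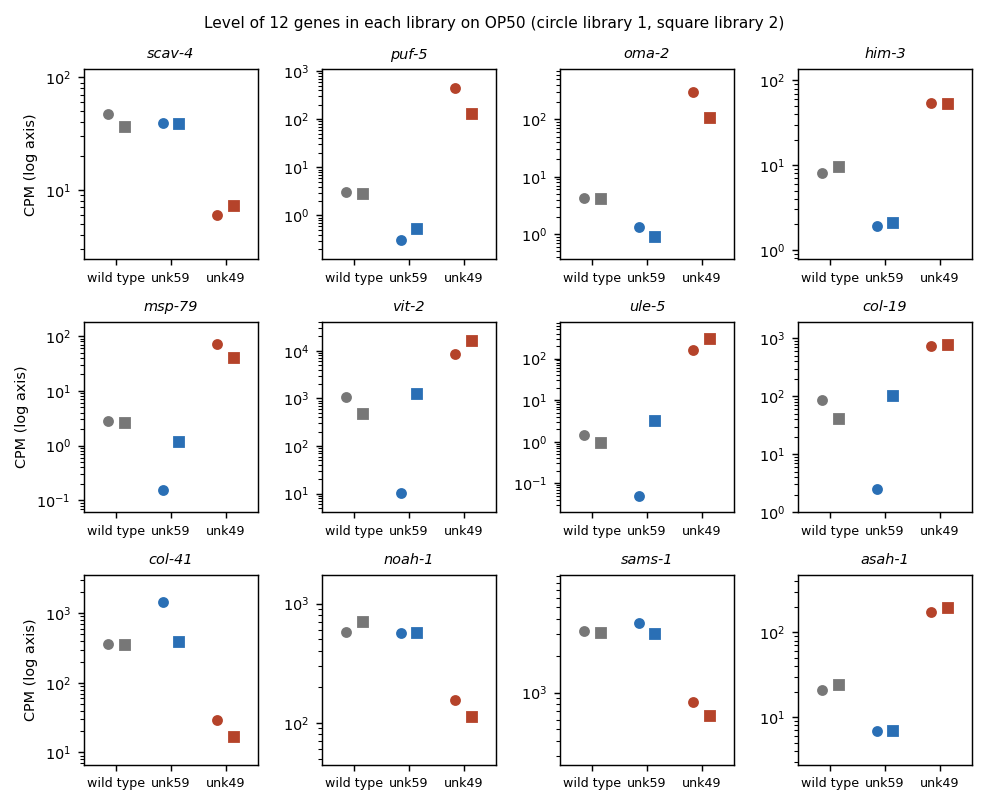
CPM of 12 genes in each OP50 library on log axes; circles are library 1 and squares library 2 of wild type (grey), unk59 (blue) and unk49 (red). The unk59 libraries nearly coincide for scav-4, him-3, noah-1 and asah-1 and lie far apart for msp-79, vit-2, ule-5 and col-19. Both unk49 libraries are separate from both unk59 libraries in all 12 panels, which the choice of some of these genes required.

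Markers of other stages and sexes were read beside these changes. Of the 17 matched genes transcribed in the embryo, 8 could be tested, and end-1, end-3, med-1, tbx-37 and pes-10 were among those with too few reads. pal-1, a caudal-type homeobox gene whose RNA is also maternal, rose with 75.7 and 90.9 CPM in unk49 and 10.4 and 13.4 CPM in unk59 (log2 fold change 2.81, SE 0.262, adjusted p 0.000138), and vet-2, an early embryonic transcript, rose with 2.40 and 4.07 CPM in unk49 and 0.558 and 0.620 CPM in unk59 (log2 fold change 2.44, SE 0.476, adjusted p 0.00253). pes-1, a forkhead factor, and hnd-1, a Hand-type factor, had 0 reads in unk59. Their mean CPM in unk49 was 8.95 and 3.53 times the floor of 3 reads per library, in that order. cwn-1, a Wnt ligand (-1.39, adjusted p 0.000504), and hlh-1, the MyoD homologue of body muscle (-0.79, adjusted p 0.0288, lost without library 1 of either allele), fell. Male markers lov-1, pkd-2, cwp-1, cwp-2 and klp-6 were each too low to be tested. The part of these markers in the other differences was not tested, and the allele and the developmental stage actually reached at harvest cannot be told apart in this design. The L4 label is the same for all groups. Yolk, uterine and col-19 levels in both unk49 libraries were above those of wild type. In the same edgeR fit, the ule genes and col-19 passed between unk49 and wild type. No vitellogenin passed there (quasi-likelihood F test, adjusted p 0.0752 to 0.360), and the adult collagens col-7 and bli-1 did not pass between the alleles. The ule genes summed to 823 and 1751 CPM in unk49 and 30.1 and 19.9 CPM in wild type.

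Developmental timing genes fell in 11 of 15 cases, beside 23.8% of all genes tested, with a median of -0.96. lin-29, the zinc-finger factor of the larval-to-adult switch, had 24.3 and 22.4 CPM in unk49 and 80.0 and 77.6 CPM in unk59 (log2 fold change -1.75, SE 0.176, adjusted p 0.000167). lin-42, the homologue of the Period clock protein, had 202 and 141.6 CPM in unk49 and 464 and 488 CPM in unk59 (log2 fold change -1.47, SE 0.317, adjusted p 0.00417), and daf-12, a nuclear hormone receptor, had 41.5 and 36.3 CPM in unk49 and 98.7 and 83.2 CPM in unk59 (log2 fold change -1.23, SE 0.176, adjusted p 0.000603). lin-14 (-0.87) and the microRNA Argonaute alg-1 (-1.12) fell by less. The rise (2 members without library 2 of unk49) was that of lin-28, an RNA-binding protein that is also present in the germ line, with 23 and 34.3 CPM in unk49 and 10.8 and 11.4 CPM in unk59 (log2 fold change 1.37, SE 0.231, adjusted p 0.00127).

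Transcription regulators of the moulting cycle fell in 9 of 12 cases (75%, beside 23.8% of all genes tested). The median was -1.56, and the remaining 3 had negative values. nhr-25, a nuclear receptor needed for moulting, had 7.07 and 7.11 CPM in unk49 and 69.7 and 37.5 CPM in unk59 (log2 fold change -2.92, SE 0.299, adjusted p 0.000174). blmp-1, a Blimp-type factor, had 40.3 and 37.6 CPM in unk49 and 139 and 144 CPM in unk59 (log2 fold change -1.86, SE 0.150, adjusted p 9.82e-05), and grh-1, the Grainyhead factor of the epidermis, had 12.7 and 9.77 CPM in unk49 and 37.8 and 38.9 CPM in unk59 (log2 fold change -1.77, SE 0.209, adjusted p 0.000273). nhr-23, a nuclear receptor that peaks in each larval stage, had 52.5 and 21.5 CPM in unk49 and 59.9 and 56.7 CPM in unk59 and did not pass (log2 fold change -0.65, SE 0.375, adjusted p 0.165). Its unk49 libraries differed widely, and library 1 was near unk59.

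Moulting enzymes and proteins of the apical matrix fell in 21 of 25 cases, 84% beside 23.8% of all genes, with a median of -1.84. Their summed level was 1700.5 and 1299 CPM in unk49 and 5005 and 5233 CPM in unk59, with 5273 and 6031 CPM in wild type. noah-1, an apical matrix protein, had 154 and 111 CPM in unk49 and 570.2 and 567 CPM in unk59 (log2 fold change -2.1, SE 0.296, adjusted p 0.000549), and fbn-1, a fibrillin-related matrix protein, had 42.9 and 33.3 CPM in unk49 and 177 and 195 CPM in unk59 (log2 fold change -2.28, SE 0.234, adjusted p 0.000174). The unk59 libraries lay at or somewhat below wild type, and the unk49 libraries were several times lower. mlt-10 (-1.89) and let-653 (-1.92) also fell. nas-37, a protease that helps shed the old cuticle, had 57.4 and 78.1 CPM in unk49 and 79.8 and 118 CPM in unk59 and did not pass (log2 fold change -0.54, SE 0.224, adjusted p 0.0651), as did nas-6, bli-4 and bli-5.

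Collagens were split by type. The 6 collagens of the cuticle furrows, dpy-2, dpy-3, dpy-7, dpy-8, dpy-9 and dpy-10, all fell, beside 23.8% of all genes tested. Their fold changes lay within a narrow range from -1.92 to -1.75. dpy-7 had 34.3 and 28 CPM in unk49 and 115.5 and 119.8 CPM in unk59 (log2 fold change -1.92, SE 0.344, adjusted p 0.00170). Without library 2 of unk49, dpy-8 and dpy-10 lost the call (adjusted p 0.0503 and 0.0570), and dpy-10 shares 49% of its exon bases with another annotated gene. Of 16 body shape and strut collagens tested, 9 fell and col-19 rose (56.3% and 6.25%, beside 23.8% and 30.2% of all genes tested). The rises numbered 0 without either unk49 library and 5 without library 2 of unk59. rol-6 had 119 and 90.8 CPM in unk49 and 472 and 358 CPM in unk59 (log2 fold change -1.98, SE 0.382, adjusted p 0.00240), and sqt-3 had 497 and 350.1 CPM in unk49 and 1988 and 1772 CPM in unk59 (log2 fold change -2.15, SE 0.299, adjusted p 0.000514).

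Of 119 numbered collagens tested, 51 fell and 20 rose (42.9% and 16.8%, beside 23.8% and 30.2% of all genes tested), with a median of -0.80. The rises included col-142, with 249 and 209 CPM in unk49 and 43.9 and 46.9 CPM in unk59 (log2 fold change 2.33, SE 0.171, adjusted p 9.5e-05), col-101, with 82.2 and 152 CPM in unk49 and 2.49 and 3.58 CPM in unk59 (log2 fold change 5.27, SE 0.422, adjusted p 9.82e-05), and col-143, with 154 and 214 CPM in unk49 and 0.304 and 2.72 CPM in unk59 (log2 fold change 6.91, SE 0.706, adjusted p 0.000173). All 3 were named for no overlap between the alleles, and their unk49 libraries were also above the wild-type libraries. Without library 2 of unk59, 38 numbered collagens rose and 46 fell, and the median was -0.22; without library 2 of unk49 the rises were 13.

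Hedgehog-related and patched-related genes, families that expanded in nematodes and act largely in the epidermis, fell in 48 of 65 cases, with a median of -1.47. That share, 73.8%, stands beside 23.8% of all genes tested. ptr-25, a patched-related gene, had 8.78 and 7.56 CPM in unk49 and 43.6 and 40.9 CPM in unk59 (log2 fold change -2.37, SE 0.185, adjusted p 9.82e-05), and ptc-3, a patched homologue, had 75.8 and 70.5 CPM in unk49 and 273 and 241 CPM in unk59 (log2 fold change -1.81, SE 0.159, adjusted p 0.000112). Members of the list that rose numbered 2 (1 without library 2 of unk59), beside 30.2% of all genes tested. grl-18, a hedgehog-related gene named after its values were seen, had 0.900 and 1.19 CPM in unk49 and 0.152 and 0.191 CPM in unk59 (log2 fold change 2.57, SE 0.755, adjusted p 0.0177), and its call was lost without library 2 of unk49 and without either unk59 library. ptc-1, the homologue with a role in germline cytokinesis, had 352 and 153 CPM in unk49 and 143.5 and 112.5 CPM in unk59 (log2 fold change 0.98, SE 0.343, adjusted p 0.0363). That rise rests on library 1 of unk49: it was 0.22 without it and 1.48 without library 2. The call was also lost without either unk59 library.

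**Figure D4:**
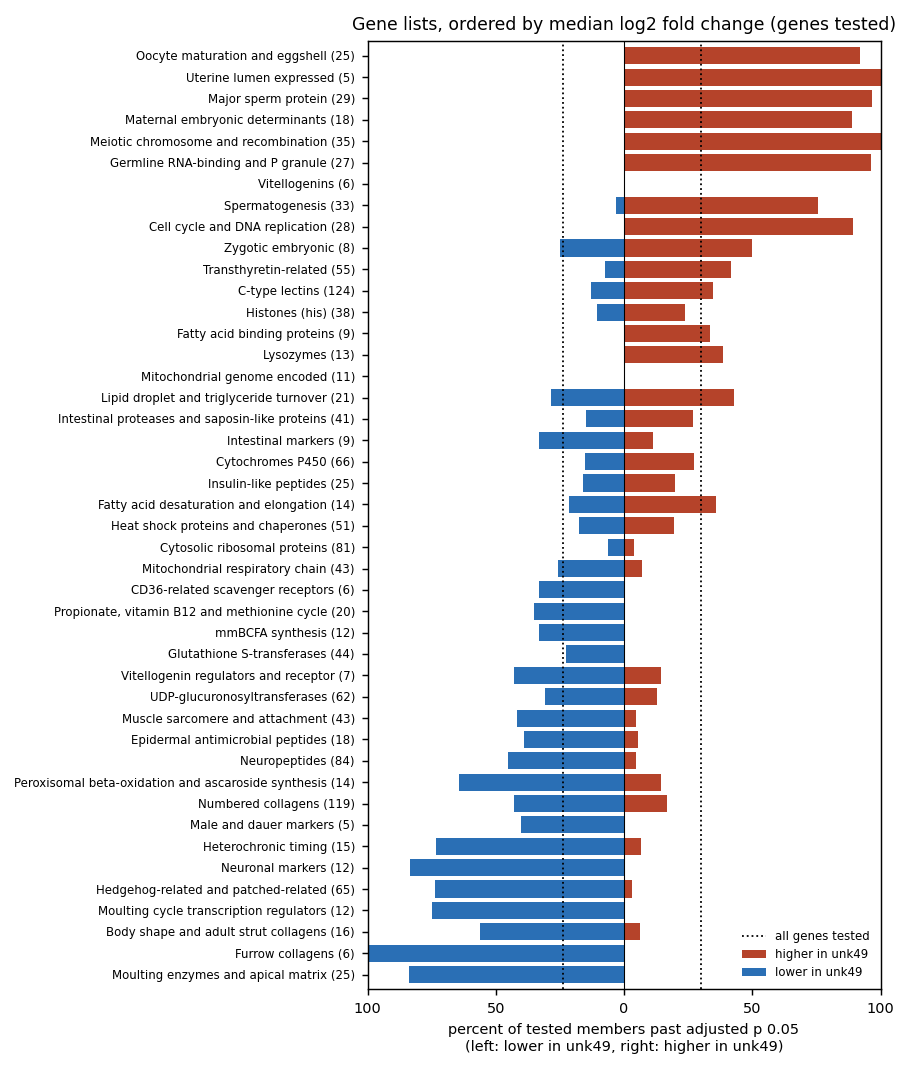
Percent of tested members of 44 gene lists that passed an adjusted p of 0.05, lower in unk49 to the left (blue) and higher to the right (red), with the number of members tested in brackets and lists ordered by median log2 fold change. Dotted lines mark all genes tested, 23.8% lower and 30.2% higher; germline and egg lists are at the top and moulting, collagen and hedgehog-related lists at the bottom.

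The study's title concerns branched chain fatty acids, so the genes that make monomethyl branched-chain fatty acids (mmBCFA) were read in these OP50-fed worms. Of 12 members, 4 fell (33.3%, beside 23.8% of all genes tested), 0 rose (beside 30.2%) and 8 did not pass, with a median of -0.43. fasn-1, the fatty acid synthase, had 218 and 138 CPM in unk49 and 519 and 505 CPM in unk59 (log2 fold change -1.52, SE 0.267, adjusted p 0.00154). let-767, a ketoacyl reductase (-0.68, adjusted p 0.0192), and bckd-1A and bckd-1B, subunits of the branched-chain ketoacid dehydrogenase (-0.69 and -0.63, adjusted p 0.00826 and 0.0180), fell by less. The let-767 call was lost without library 1 of unk49 or either unk59 library, that of bckd-1A without library 1 of unk59, and that of bckd-1B without library 1 of unk49 or library 2 of unk59. Without either unk59 library 2 members fell, and without library 1 of unk49 2 rose. The mmBCFA elongases did not pass: elo-5 had 303 and 855 CPM in unk49 and 382 and 392 CPM in unk59 (log2 fold change 0.58, SE 0.387, adjusted p 0.226) and elo-6 had 414 and 971 CPM in unk49 and 876 and 1003 CPM in unk59 (log2 fold change -0.44, SE 0.351, adjusted p 0.307). In each, the unk49 libraries lay far apart, and the sign of elo-5 depended on which of them was kept. acs-1, the acyl-CoA synthetase of this pathway, did not pass either (log2 fold change 0.32, SE 0.209, adjusted p 0.223).

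Among desaturases and elongases of other fatty acids, 5 rose and 3 fell of 14 (35.7% and 21.4%, beside 30.2% and 23.8% of all genes tested). The falls numbered 0 without library 2 of unk59 and 1 without library 1 of either allele, and the rises 3 without library 1 of unk59. The median of -0.18 turned to 0.22 without library 1 of unk49. fat-2, a desaturase of polyunsaturated fatty acid synthesis, had 997 and 1355 CPM in unk49 and 456 and 461 CPM in unk59 (log2 fold change 1.36, SE 0.214, adjusted p 0.000914), and fat-5, a palmitoyl-CoA desaturase, had 12.8 and 12.5 CPM in unk49 and 4.46 and 2.1 CPM in unk59 (log2 fold change 1.95, SE 0.307, adjusted p 0.000918). fat-6, a stearoyl-CoA desaturase, rose by 0.55 (adjusted p 0.0163, lost under 4 alternatives, among them without library 1 of either allele). Its close relative fat-7 had 74 and 193 CPM in unk49 and 137 and 181 CPM in unk59 and did not pass (log2 fold change -0.25, SE 0.446, adjusted p 0.652), with a sign that turned without library 1 of unk49. The unk49 libraries of fat-7 spanned the range of both unk59 libraries.

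Peroxisomal beta-oxidation and ascaroside synthesis genes fell in 9 of 14 cases (64.3%, beside 23.8% of all genes tested), with a median of -0.75. Besides acox-1.2, acox-1.1 had 88.2 and 117 CPM in unk49 and 224 and 255 CPM in unk59 (log2 fold change -1.22, SE 0.238, adjusted p 0.00250), and daf-22, the thiolase that shortens ascaroside side chains, had 138 and 189 CPM in unk49 and 355 and 404 CPM in unk59 (log2 fold change -1.22, SE 0.237, adjusted p 0.00252). The acyl-CoA oxidase acox-1.5 rose, with 30.6 and 39.1 CPM in unk49 and 9.28 and 5.49 CPM in unk59 (log2 fold change 2.24, SE 0.309, adjusted p 0.000498), and so did acox-1.3 (0.94, adjusted p 0.0323, lost under 6 alternatives, among them without library 2 of unk49 and without either unk59 library). Without library 1 of unk49 or without library 2 of unk59, 5 members fell.

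Genes of lipid droplets and triglyceride turnover were mixed, with 9 rising and 6 falling of 21. The shares, 42.9% and 28.6%, stand beside 30.2% and 23.8% of all genes tested. lipl-5, a lysosomal lipase, had 718 and 966 CPM in unk49 and 258 and 190.3 CPM in unk59 (log2 fold change 1.91, SE 0.385, adjusted p 0.00295). lid-1, a lipid droplet protein, had 46.5 and 54.8 CPM in unk49 and 18.4 and 24.7 CPM in unk59 (log2 fold change 1.23, SE 0.198, adjusted p 0.00100), and seip-1, the seipin of the droplet surface, had 33.0 and 33.4 CPM in unk49 and 18.7 and 18.3 CPM in unk59 (log2 fold change 0.84, SE 0.181, adjusted p 0.00408). atgl-1, the adipose triglyceride lipase, rose by 0.88 (adjusted p 0.0102) and stood at 0.49 without library 1 of unk49, where it did not pass. dgat-2, a diacylglycerol acyltransferase that makes triglyceride, fell, with 40.1 and 22.6 CPM in unk49 and 145 and 171 CPM in unk59 (log2 fold change -2.33, SE 0.271, adjusted p 0.000253). Without library 2 of unk59 the counts were 5 and 2, and without library 2 of unk49 3 fell.

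Fatty acid binding proteins rose in 3 of 9 cases (33.3%, beside 30.2% of all genes tested) and the others did not pass. The rises numbered 6 without library 1 of unk49, and 1 member fell without library 2 of unk49. lbp-8, a lysosomal lipid chaperone, had 1.59 and 2.34 CPM in unk49 and 0.304 and 0.239 CPM in unk59 (log2 fold change 2.83, SE 0.487, adjusted p 0.00141), and lbp-9 had 279 and 268 CPM in unk49 and 100.8 and 87.1 CPM in unk59 (log2 fold change 1.54, SE 0.269, adjusted p 0.00149). lbp-1 also rose (0.93, adjusted p 0.0181) but stood at 0.38 without library 2 of unk49, where it did not pass, and the sign of the list's median turned there too; its call was also lost without library 1 of unk59.

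Some genes of the methionine cycle were lower in unk49. Of 20 genes of the propionate, vitamin B12 and methionine pathways, 7 fell (35%, beside 23.8% of all genes tested) and 13 did not pass. sams-1, which makes S-adenosylmethionine, had 839 and 637 CPM in unk49 and 3724 and 3002 CPM in unk59 (log2 fold change -2.19, SE 0.272, adjusted p 0.000326). ahcy-1, which breaks down its by-product, had 1983 and 1824 CPM in unk49 and 8362 and 5648 CPM in unk59 (log2 fold change -1.88, SE 0.238, adjusted p 0.000352), and mtrr-1, the methionine synthase reductase, had 108 and 109 CPM in unk49 and 306 and 231 CPM in unk59 (log2 fold change -1.31, SE 0.240, adjusted p 0.00189). These 3 were named for no overlap between the alleles; their wild-type values were 3202 and 3113, 5224 and 7583 and 270.3 and 419 CPM, in that order. acdh-1, the acyl-CoA dehydrogenase of the propionate shunt, had 885 and 1671 CPM in unk49 and 2046 and 1871 CPM in unk59 and did not pass (log2 fold change -0.62, SE 0.278, adjusted p 0.0872). Without library 1 of unk59 4 members of this list fell and 2 rose, and without library 1 of unk49 1 rose.

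The smallest adjusted p of all genes belonged to a ceramidase. asah-1, an acid ceramidase that splits ceramide into sphingosine and a fatty acid, had 174 and 191 CPM in unk49 and 6.90 and 6.97 CPM in unk59, and 21.1 and 24.1 CPM in wild type (log2 fold change 4.72, SE 0.194, adjusted p 1.5e-05). Its paralogue asah-2, named after its values were seen, had 136 and 166 CPM in unk49 and 4.67 and 3.63 CPM in unk59, and 13.9 and 13.9 CPM in wild type (log2 fold change 5.18, SE 0.253, adjusted p 2.49e-05). In both genes the libraries of each allele lay close together and wild type lay between the alleles. B0511.11, a protein-coding gene without a name, had 8.78 and 6.01 CPM in unk49 and 1.67 and 2.39 CPM in unk59 and 13.8 and 12.2 CPM in wild type (log2 fold change 1.86, SE 0.287, adjusted p 0.000830), so wild type was the highest of the 3 genotypes there.

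Secreted proteins of the intestine and of defence held genes of either direction. C-type lectins rose in 43 and fell in 16 of 124 cases tested, of 240 listed; the shares, 34.7% and 12.9%, stand beside 30.2% and 23.8% of all genes tested. The falls numbered 9 without library 2 of either allele. clec-88 had 165 and 162 CPM in unk49 and 0.660 and 1.1 CPM in unk59 (log2 fold change 7.53, SE 0.405, adjusted p 4.49e-05), clec-91 had 91.2 and 53.1 CPM in unk49 and 0.101 and 0.477 CPM in unk59 (log2 fold change 7.91, SE 0.709, adjusted p 0.000118), and clec-87 rose by 7.64. These 3 were low in every unk59 and wild-type library, at most 5.22 CPM. clec-233 fell, with 4.58 and 4.55 CPM in unk49 and 19.2 and 19 CPM in unk59 (log2 fold change -2.06, SE 0.199, adjusted p 0.000152). Of 13 lysozymes tested, 5 rose (3 without library 2 of unk49 or without library 1 of unk59, and 1 fell in the latter case): lys-7 had 329 and 104 CPM in unk49 and 7.0 and 2.77 CPM in unk59 (log2 fold change 5.47, SE 0.622, adjusted p 0.000236), lys-8 rose by 1.85 and lys-10 by 4.05 (2.62 without library 2 of unk49). Saposin-like proteins and proteases rose in 11 and fell in 6 of 41 cases, 26.8% and 14.6%, both below the shares of all genes, and the falls numbered 3 without library 2 of unk59. spp-8, a saposin-like gene, had 167 and 185 CPM in unk49 and 10.7 and 11.3 CPM in unk59 (log2 fold change 4.0, SE 0.191, adjusted p 2.49e-05), and cpr-4, a cathepsin B-like protease, rose by 2.85 (adjusted p 0.000134).

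Among detoxification genes, the cytochromes P450 had 18 rises and 10 falls of 66, 27.3% and 15.2%, below the 30.2% and 23.8% of all genes tested. Their falls numbered 3 without library 1 of unk49 and 4 without library 2 of unk59. cyp-31A2 and cyp-31A3, P450s that worms need for a sound eggshell, rose by 5.86 and 5.09 (adjusted p 0.000167 and 0.000300); they are close copies, so their separate values are uncertain. UDP-glucuronosyltransferases fell in 19 and rose in 8 of 62 cases, 30.6% and 12.9%, beside 23.8% and 30.2% of all genes tested. Among them, ugt-65 had 6.47 and 6.14 CPM in unk49 and 52.4 and 36.9 CPM in unk59 (log2 fold change -2.82, SE 0.338, adjusted p 0.000282). The rises of that family numbered 3 without library 2 of unk49 and 4 without library 1 of unk59. Glutathione S-transferases fell in 10 of 44 cases (22.7%, near the share of all genes), with gst-10 at 41.5 and 52.5 CPM in unk49 and 203 and 369 CPM in unk59 (log2 fold change -2.61, SE 0.585, adjusted p 0.00501); 6 fell without library 1 of unk49 or library 2 of unk59. Transthyretin-related genes rose in 23 and fell in 4 of 55 cases (41.8% and 7.27%, beside 30.2% and 23.8% of all genes tested). Of these, ttr-34 rose by 4.08 (adjusted p 0.00468), and by 7.94 without library 2 of unk59. The rises of this list numbered 12 without library 2 of unk49 and 15 without library 1 of unk59. Epidermal antimicrobial peptides fell in 7 and rose in 1 of 18 cases (38.9% and 5.56%, beside 23.8% and 30.2% of all genes tested). The rise was that of nlp-28 (2.14, adjusted p 0.000593). The falls numbered 3 without library 1 of unk49 and 4 without library 1 of unk59.

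Genes of neurons stood lower in unk49. Of 12 neuronal markers tested, 10 fell (83.3%, beside 23.8% of all genes tested), with a median of -1.19. rab-3, a synaptic vesicle GTPase, had 15.3 and 15.2 CPM in unk49 and 43.9 and 41 CPM in unk59 (log2 fold change -1.48, SE 0.162, adjusted p 0.000209), and eat-4, the vesicular glutamate transporter, had 2.53 and 1.99 CPM in unk49 and 8.68 and 7.92 CPM in unk59 (log2 fold change -1.87, SE 0.258, adjusted p 0.000496). The exceptions were cat-2 and snb-1, a synaptobrevin with 170.5 and 153 CPM in unk49 and 182 and 168 CPM in unk59 (log2 fold change -0.11, SE 0.165, adjusted p 0.586). For eat-4 the strand column of the counts gave -0.25, where it did not pass. Neuropeptide genes fell in 38 and rose in 4 of 84 cases, with a median of -0.71, and the rises numbered 1 without library 2 of unk49 and 2 without either unk59 library. The shares of that list, 45.2% lower and 4.76% higher, stand beside 23.8% and 30.2% of all genes tested. flp-5 had 22.4 and 22.7 CPM in unk49 and 59.1 and 60.3 CPM in unk59 (log2 fold change -1.4, SE 0.150, adjusted p 0.000196). Of 25 insulin-like peptides 5 rose and 4 fell, shares below those of all genes, and ins-27 fell by 1.01 on the log2 scale (adjusted p 0.00110).

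Muscle genes fell in 18 and rose in 2 of 43 cases (41.9% and 4.65%, beside 23.8% and 30.2% of all genes tested), with a median of -0.52. unc-52, the perlecan that anchors muscle, had 288 and 225 CPM in unk49 and 741 and 602 CPM in unk59 (log2 fold change -1.39, SE 0.200, adjusted p 0.000617). unc-54, the main myosin of the body wall, had 1515 and 1475 CPM in unk49 and 3374 and 1499 CPM in unk59 and did not pass (log2 fold change -0.70, SE 0.351, adjusted p 0.115). Its library 2 in unk59 lay at the level of unk49, and its library 1 lay well above them. The same held for myo-3, another body wall myosin (-0.98, adjusted p 0.0281), which stood at -0.37 without library 1 of unk59 and did not pass; its call was also lost without either unk49 library. Without library 1 of unk59 6 muscle genes fell and the median was -0.16. act-2 rose (0.78, adjusted p 0.00390), but actin genes are close copies and its own value is uncertain. argk-1, an arginine kinase, had 137 and 164 CPM in unk49 and 367 and 53.9 CPM in unk59 and did not pass (log2 fold change -0.49, SE 0.656, adjusted p 0.550); without library 1 of unk59 it turned to 1.48 and passed (adjusted p 0.00467).

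Intestinal markers were not uniform. elt-2 fell as above, and act-5, the actin of intestinal microvilli, had 1389.9 and 1531 CPM in unk49 and 3206 and 2910.5 CPM in unk59 (log2 fold change -1.07, SE 0.257, adjusted p 0.00715). ges-1, the gut esterase, had 69.9 and 63.0 CPM in unk49 and 57.1 and 67.4 CPM in unk59 and did not pass (log2 fold change 0.09, SE 0.229, adjusted p 0.745), with a sign that changed under 3 alternatives, and ifb-2, an intestinal filament protein, did not pass either (log2 fold change -0.54, SE 0.285, adjusted p 0.137). mtl-2, a metallothionein, rose by 1.78 (adjusted p 0.0230) but stood at 0.68, not past the threshold, without library 2 of unk49, and also lost the call without library 1 of unk59. These levels do not separate a change in intestinal cells from a change in their share of the worm's RNA.

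Housekeeping lists held paralogue pairs that moved apart. Of 81 cytosolic ribosomal protein genes, 3 rose and 5 fell around a median of -0.28. The shares, 3.7% and 6.17%, stand beside 30.2% and 23.8% of all genes tested. The falls numbered 53 with upper-quartile scaling. With a library left out, the rises numbered 1 without library 1 of unk59, and the falls 1 without it and 3 without library 1 of unk49 or library 2 of unk59. rpl-11.1 had 831 and 803 CPM in unk49 and 116 and 104 CPM in unk59 (log2 fold change 2.89, SE 0.337, adjusted p 0.000256), while its paralogue rpl-11.2 had 1205 and 1439 CPM in unk49 and 2620.5 and 2192 CPM in unk59 (log2 fold change -0.86, SE 0.175, adjusted p 0.00300). In the respiratory chain, 3 rose and 11 fell of 43, and the share of falls, 25.6%, was near the 23.8% of all genes tested. The falls numbered 26 with upper-quartile scaling, 6 with library totals and 3 without library 1 of unk59. ucr-2.3, a subunit of the cytochrome bc complex, had 87.9 and 52 CPM in unk49 and 6.80 and 3.87 CPM in unk59 (log2 fold change 3.72, SE 0.424, adjusted p 0.000236), and its paralogue ucr-2.2 had 134 and 167 CPM in unk49 and 283 and 255 CPM in unk59 (log2 fold change -0.84, SE 0.203, adjusted p 0.00730). asb-1, an ATP synthase subunit, rose by 1.64 (adjusted p 0.000278), and asb-2 was among the falls.

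Lists that bear on RNA quality and stress gave these values, and their part in the results was not tested. Of 11 protein-coding genes of the mitochondrial genome tested, 0 passed with edgeR, 0 had an unadjusted p under 0.05 and 0 passed with DESeq2; 2 rose without library 1 of unk49. Their summed level was 4779.9 and 11051 CPM in unk49 and 6626 and 8586 CPM in unk59. The unk49 libraries thus lay far from each other and bracketed unk59. Heat shock proteins and chaperones rose in 10 and fell in 9 of 51 cases, shares below those of all genes; hsp-3, a chaperone of the endoplasmic reticulum, had 803 and 656 CPM in unk49 and 1972 and 1739 CPM in unk59 (log2 fold change -1.35, SE 0.210, adjusted p 0.000877). Of 38 histone genes named his tested, 9 rose and 4 fell (23.7% and 10.5%, below the shares of all genes; 5 rose without library 1 of unk49 or without either unk59 library), with his-74 at 120.0 and 73.8 CPM in unk49 and 8.07 and 6.2 CPM in unk59 (log2 fold change 3.76, SE 0.371, adjusted p 0.000159).

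Called genes were spread unevenly over the chromosomes. On the X chromosome 44.3% of 2255 genes tested were lower in unk49 and 11.4% were higher, with a median log2 fold change of -0.63. On the autosomes the share of higher genes ran from 27.4% on chromosome V to 38.8% on chromosome I, and the share of lower genes from 18.1% on chromosome I to 22.7% on chromosome V. Over the 13 alternatives, 27.2% to 51% of X-linked genes were lower, against 12.5% to 25.7% of autosomal genes, and in each setting the X share was the larger. scav-4, 5 of the 6 vitellogenins and sams-1 lie on X. Pseudogenes were a further group apart: of 538 tested, 41.8% were higher and 4.46% lower, against 30% and 24.6% of 15177 protein-coding genes. The split of reads between a pseudogene and a near-identical parent gene is uncertain.

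**Figure D5:**
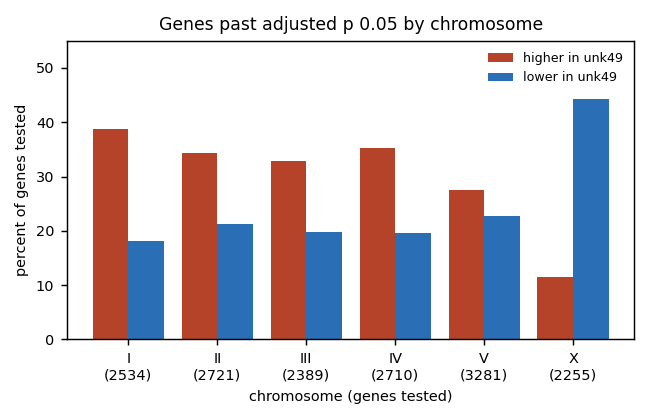
Percent of tested genes past an adjusted p of 0.05 on each nuclear chromosome, higher in unk49 (red) and lower in unk49 (blue), with the number of genes tested in brackets; the vertical axis starts at 0. Lower calls exceed higher calls on X, 44.3% against 11.4%, and on no autosome.

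Beside wild type on OP50, the alleles differed widely in the number of calls. In the same fit, 7392 genes (46.3%) passed between unk49 and wild type, 4345 higher and 3047 lower, and 2 genes (0.0125%) passed between unk59 and wild type. The few calls do not show that unk59 matched wild type. In unk59, htp-1 stood at -1.90 against wild type (SE 0.265) and did not pass (quasi-likelihood F test of edgeR, adjusted p 0.0921). The comparisons share the wild-type libraries, so only each allele's own values are given. Median log2 fold changes against wild type were 4.95 in unk49 and -2.06 in unk59 for oocyte and eggshell genes, 2.59 and -1.87 for meiotic genes, and 4.07 and -1.81 for major sperm protein genes. They were -1.90 and -0.11 for moulting enzymes and -1.4 and 0.09 for hedgehog-related genes. asah-1 was 3.01 above wild type in unk49 and stood at -1.70 in unk59, both past the threshold. By these medians alone, wild type lay between the alleles for the egg, sperm and meiotic lists. For moulting and hedgehog-related genes it lay with unk59. The unk59 medians rest almost wholly on members not called against wild type, since 2 genes passed in all. Oocyte and eggshell genes summed to 354 and 336 CPM in unk59 and 394 and 382 CPM in wild type.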

How the data were processed

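RNA of whole worms was sequenced as paired reads of 100 bases. The authors deposited raw counts, whole numbers of pairs assigned to each gene and not normalized, in the layout of the STAR aligner's gene counts. Per the submitters' processing notes, the tools were STAR 2.7.10 and DESeq2 and the build was WBcel235; the settings are not given in the sources used here. Reads that map to several places or to overlapping genes are left out of such counts, so near-identical and overlapping genes are uncertain; 53 of 171 named genes share exon bases with another gene. The labels call the kit strand-specific, but the strand columns split reads evenly (median shares 49.8% to 50.1%), so the column counted without strand was used. The unk49 sample on JUb74 was not analysed here, and 1 table tied to no sample was not used.

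The model was fitted with edgeR 4.0.16 (R 4.3.3): TMM scaling, filterByExpr, a mean for each of 5 groups over 10 libraries with a shared spread (common biological coefficient of variation 23.4%), robust quasi-likelihood F tests, two-sided, and Benjamini-Hochberg adjustment over 15950 genes, with a threshold of 0.05. Standard errors come from the fold change and the F statistic. The libraries of a group differed by far more than sampling noise (chi-square per degree of freedom 19.8 to 88.9), so each was kept as a library. Unassigned rows stayed out of library sizes; per library, 2.02% to 2.23% of pairs were unmapped, 2.40% to 3.49% multimapping, 0.350% to 0.418% outside genes and 1.76% to 1.84% ambiguous over the 6 OP50 libraries. The floor is 3 reads or fewer in each library of an allele. For an allele at the floor, the bound is the other allele's mean CPM over the CPM of 3 reads. It is a ratio to the floor and holds no interval for counting error or for the spread between libraries. The test was also run on simulated counts in which only a small share of genes changed, unlike here. That run therefore does not bear on the calls of this contrast. Alternatives were other scalings, filters, the strand column, DESeq2 1.42.0, fitting only the 4 libraries, a replicate block and each library left out.

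The comparison and the 44 gene lists were chosen with earlier results of these data known. Lists are described by counts and medians, with no set test. Named genes were the scav genes, the 8 largest rises and falls past the threshold with a mean log2 CPM of at least 2, a name and no overlap between alleles, up to 3 members per list and direction with the smallest adjusted p under the same conditions, any member of lists of up to 12 tested, and fixed stage and tissue examples. Exceptions within longer lists, asah-2 and grl-18 were named after their values were seen. Symbols and coordinates came from Ensembl release 115 for WBcel235, which held 46603 of the 46778 gene IDs; sequences were not used here.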

Additional observations from a re-analysis of the deposited data

How the results depend on the processing

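The counts were recomputed under 9 other settings and with each of the 4 libraries left out in turn. Calls numbered 5972 to 9018, higher calls 3594 to 5300 and calls with a log2 fold change of at least 1 in size 5351 to 6885, all within 1.5 times the reported count. Lower calls ranged to 4666 (upper-quartile scaling) and fell to 2378 when only the 4 libraries were fitted, which leaves fewer samples to estimate the spread. With a library left out, calls lay between 6576 and 8194, higher calls between 3788 and 4733, lower calls between 2788 and 3461, large changes between 5786 and 6311, and the scav-4 change between -2.67 and -2.48. The median of all genes moved from 0.03 to 0.20 with library totals, 0.13 with relative log expression scaling or DESeq2 and -0.12 with upper-quartile scaling, so values closer to 0 than that have no firm sign. DESeq2 called 8304 genes and the strand column 8025.

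The library number as a replicate block gave 8172 calls, 4587 higher and 3585 lower, 6347 of them large, and -2.54 for scav-4 (adjusted p 0.00263). The numbers come only from library names, and same-numbered unk59 and unk49 libraries did not deviate together (correlation 0.011), so no pairing was assumed; among called genes named here the block ended the calls of col-19 and ptc-1.

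Of 140 called genes named in the text, 118 kept the call under all 13 alternatives, 22 lost it under at least 1 and 0 changed sign. Sign changes were limited to genes not past the threshold. Under other settings these were scav-3 (0.062), snb-1 (0.058) and skn-1 (0.045) with library totals and ges-1 (-0.067) with upper-quartile scaling. With a library left out, the values ran from -0.36 to 0.092 for scav-3, -1.54 to 1.17 for bli-1, -0.38 to 1.62 for lin-41, -0.34 to 1.1 for elo-5, -1.17 to 0.00056 for elo-6, -1.09 to 0.23 for fat-7, -0.030 to 0.21 for ges-1, -1.29 to 1.48 for argk-1, -0.29 to 0.57 for gld-2, -0.59 to 0.21 for skn-1 and -0.49 to 0.0017 for par-6. The cause was not tested.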

Other observations

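Gene families defined by name alone gave a further view, ranked after their values were seen, without a test, among families with at least 10 members tested. The families with the highest share of rises in unk49 were ssp (12 of 12, median log2 fold change 5.57) and msp (28 of 29). Next came him (10 of 11, median 2.72) and bath, proteins with BTB and MATH domains (27 of 32, median 3.2). Those with the highest share of falls were mec, named for touch insensitivity (14 of 16, median -1.48), grd, hedgehog-related (10 of 12, median -1.32), abu (9 of 11, median -2.17), vab (8 of 10, median -1.04) and dpy, body shape genes (19 of 24, median -1.62). The cuticlin-like cutl genes fell in 20 of 26 cases (median -1.59), the globins glb in 20 of 30 (median -1.12) and the uncoordinated unc genes in 61 of 93 (median -0.90). Over all genes tested, 30.2% rose and 23.8% fell.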
